A study of Mus musculus with 20 samples.

Results

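The spread of gene expression between mice was measured in the abdominal aorta of 20 mice, 5 in each of 4 groups, over 7170 of the 43422 genes deposited. These 7170 genes had a mean of at least 5 FPKM (a count of fragments scaled by transcript length and by the size of the library) over the 20 mice. For each gene the SD of log2(FPKM + 1) was taken within each group, and the SD of an Ang II-infused group was set against that of the saline-infused group of the same genotype. A mean of 5 FPKM was reached in all 4 groups by 5892 of the genes and in a single group by 173 of them. Of those 173 genes, 126 reached it only in Ang II-infused Plod1-/- mice, 33 only in Ang II-infused WT mice, 10 only in saline-infused WT mice and 4 only in saline-infused Plod1-/- mice. The groups were saline-infused wild type (WT) mice, Ang II-infused WT mice, saline-infused Plod1-/- mice and Ang II-infused Plod1-/- mice, all C57BL/6 and 6 months old by the labels. The methods name the background C57Bl/6NCrl and give a lower age at pump implantation. Plod1-/- mice carry a germline knockout of the gene for lysyl hydroxylase 1 (LH1) and were bred, like the WT mice, from heterozygous parents. Angiotensin II (Ang II) was given at 1000 ng/kg per min from an osmotic pump, and the aortas were taken on day 14. The methods describe male mice only. No label or method tells of pooling, so each library was read as 1 mouse, and every p-value measures the spread between these libraries.

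LH1 hydroxylates lysine residues of collagen, a step that keeps the cross-links between collagen molecules stable. Ang II constricts arteries, raises blood pressure and drives remodelling of the aortic wall, and in mice it can lead to dissection of the abdominal aorta, a lesion that some animals of a group develop and others do not. The wall holds smooth muscle cells in the media, endothelial cells, fibroblasts of the adventitia and immune cells, and it is surrounded by brown and white fat, nerves with their sympathetic ganglia and skeletal muscle. In a bulk library, fewer cells of a type and less RNA per cell cannot be told apart.

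Plod1, the targeted gene, was listed at 22.8 to 29.7 FPKM in the 10 WT mice and never above 0.0415 FPKM in the 10 Plod1-/- mice. Xist, an RNA of the inactive X chromosome, was listed at 15.1 FPKM in saline-infused Plod1-/- mouse 5 and at 7.93 FPKM in Ang II-infused Plod1-/- mouse 1. It was at most 0.0328 FPKM in the other 18 libraries, and results of Plod1-/- mice that rest on those 2 libraries are given with and without them. The absolute depth is unknown, and the relative depth that the smallest values imply lay between 0.931 and 1.06. Genes of the mitochondrial genome took 14.6% of the FPKM sum in Ang II-infused WT mouse 4 and 20.8% to 29.1% in the other mice of its group. They took 21.1% in Ang II-infused Plod1-/- mouse 1 and 9.23% to 13.1% in the other mice of that group. Smooth muscle markers identified the tissue in every library (17 of 18 passed the minimum, and Acta2 was never below 1901 FPKM), whereas 0 of 18 T cell markers passed.

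Most genes varied more between Ang II-infused mice than between saline-infused mice of the same genotype. The median SD of a gene was 0.18 (log2) in saline-infused and 0.27 in Ang II-infused WT mice. It was 0.16 under saline and 0.28 under Ang II in Plod1-/- mice. The SD was higher under Ang II for 5089 genes of 7170 in WT mice (71%) and for 5677 in Plod1-/- mice (79.2%), with a median ratio of the SDs of 1.48 and 1.69. It was at least 2 times as high for 2338 genes (32.6%) in WT and for 2821 genes (39.3%) in Plod1-/- mice. It was at most 0.5 times as high for 436 genes (6.08%) and 228 genes (3.18%). The 920 genes with an SD at least 2 times as high in both genotypes were 39.3% of the WT genes and 32.6% of the Plod1-/- genes. The ratio was above 1 also where the mean moved little. Among the 4704 genes whose mean moved by less than 0.5 (log2) in WT mice, the median ratio of the SDs was 1.30, and among 4408 such genes in Plod1-/- mice it was 1.60. Where the mean moved by at least 1, the median ratio was 1.88 over 824 genes in WT and 2.18 over 1153 genes in Plod1-/- mice.

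A few mice carried much of the spread. The distance of a mouse from its group was taken as the root mean square difference in log2(FPKM + 1) from the mean of the other 4 mice over all 7170 genes. In saline-infused WT mice 1 to 5 it was 0.373, 0.297, 0.309, 0.322 and 0.345, and in Ang II-infused WT mice 0.558, 0.392, 0.272, 0.669 and 0.361. Ang II-infused WT mice 1, 2 and 4 lay above every saline-infused WT mouse and mouse 3 below all of them, so the groups overlapped. Saline-infused Plod1-/- mice were at 0.306, 0.418, 0.315, 0.349 and 0.331, and Ang II-infused Plod1-/- mice at 0.731, 0.524, 0.442, 0.326 and 0.456. Of the Ang II-infused Plod1-/- mice, mouse 4 alone lay within the range of the saline-infused group. The mean distance in WT mice was 0.450 ± 0.160 (SD, n = 5) under Ang II and 0.329 ± 0.0302 under saline (two-sided exact permutation test, p = 0.167). The means in Plod1-/- mice were 0.496 ± 0.149 (SD, n = 5) and 0.344 ± 0.0448 (exact permutation p = 0.0317, adjusted over the 2 comparisons 0.0635), and neither difference passed after adjustment. Without the 2 libraries that held Xist RNA, the difference in Plod1-/- mice was 0.0615 (exact permutation p = 0.371).

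Within Ang II-infused WT mice, mouse 4 held 40.1% and mouse 1 held 27.9% of the squared deviations of all genes, and mouse 4 was the farthest from the group mean in 4003 genes (55.8%). Within Ang II-infused Plod1-/- mice, mouse 1 held 40.5% of the squared deviations and was the farthest in 3178 genes (44.3%). The largest share in a saline-infused group was 25.5% for WT mice (mouse 1) and 29.2% for Plod1-/- mice (mouse 2). Leaving out WT mouse 4 took the median log2 ratio of the SDs in WT mice from 0.56 to 0.09, with a higher SD under Ang II in 53.7% of genes. Leaving out Plod1-/- mouse 1 took the median in Plod1-/- mice from 0.76 to 0.39, with a higher SD in 66.3% of genes. Leaving out both libraries with Xist RNA gave 0.40 and 66.0% there. Leaving out the farthest mouse of the Ang II-infused group alone lowers the SDs of that group by design. Leaving out saline-infused WT mouse 1 gave a median of 0.70 in WT mice. Leaving out saline-infused Plod1-/- mouse 2 gave 0.82 in Plod1-/- mice. A single mouse stood apart from the other 4, by the gap criterion of Dixon that chance meets in about 1 in 20 sets, in 296 genes (4.13%) of saline-infused and 549 genes (7.66%) of Ang II-infused WT mice. The numbers in Plod1-/- mice were 405 (5.65%) and 539 (7.52%). Mouse 4 was the one apart in 328 and mouse 1 in 182 of the 549 genes of Ang II-infused WT mice, and mouse 1 in 365 of the 539 genes of Ang II-infused Plod1-/- mice.

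**Figure D1:**
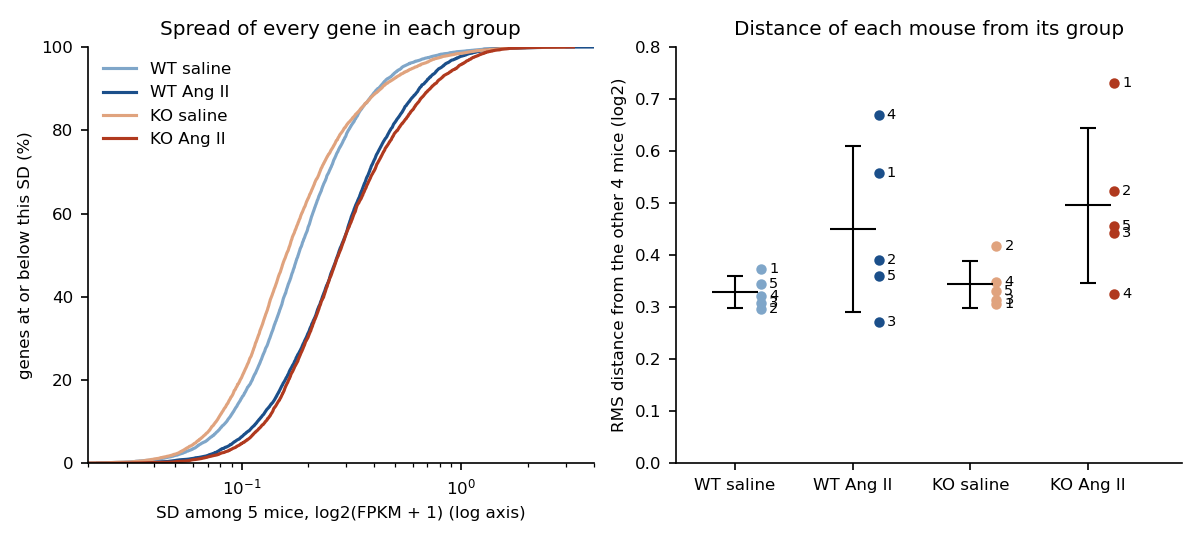
The left panel plots, for each group, the percentage of the 7170 genes (y axis) whose SD among 5 mice lies at or below the value on the log x axis, and the right panel plots the root mean square distance of each numbered mouse from the other 4 of its group, with the mean and SD as bars. Both Ang II curves lie to the right of both saline curves up to an SD of about 1, and Ang II-infused WT mouse 4 (0.669) and Plod1-/- mouse 1 (0.731) are the farthest from their groups.

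For each gene, the absolute distance of every mouse from its group mean, scaled for group size, was then compared between Ang II and saline with limma. In WT mice 3 of 7170 genes were called more variable under Ang II (0.0418%) at an adjusted p below 0.05 and 0 less variable, while 1176 (16.4%) and 179 (2.5%) had an unadjusted p below 0.05. The 3 genes were Saa3, Acta1 and Ighg2c. In Plod1-/- mice 4 genes were called more variable (0.0558%), namely Dbh, Th, Prph and Gm10800, and 0 less variable, with 1367 (19.1%) and 67 (0.934%) at an unadjusted p below 0.05. An exact permutation test of each gene, whose smallest p with 5 mice against 5 is 0.00794, called 0 genes in either genotype after adjustment, with 854 more and 179 less variable WT genes and 1070 more and 79 less variable Plod1-/- genes at an unadjusted p below 0.05. The p was at its smallest, with more spread under Ang II, in 193 WT genes (2.69%) and 269 Plod1-/- genes (3.75%). With quantile normalization limma called 5 genes more and 2 less variable in WT and 5 more and 3 less variable in Plod1-/- mice. Under saline, Saa3 and Ighg2c in WT mice and Dbh, Th and Prph in Plod1-/- mice were below 1 FPKM in every mouse. At such values the added 1 keeps the SD of log2(FPKM + 1) small, so a rise from there can widen the SD on this scale. With a pseudocount of 0.1 the only genes called were Saa3 in WT and Dbh in Plod1-/- mice. The number of calls rested on which mice were included. Without Ang II-infused WT mouse 1, 2, 3, 4 or 5, the count in WT mice was 60, 165, 386, 12 or 139, and without saline-infused WT mouse 3 or 5 it was 1. In Plod1-/- mice it was 2 without saline-infused mouse 1, 4 or 5 or Ang II-infused mouse 2, 1 without Ang II-infused mouse 1, 17 without Ang II-infused mouse 5, and 0 without the 2 libraries that held Xist RNA.

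The largest spread of any gene was that of Saa3 in Ang II-infused WT mice. Saa3 (ENSMUSG00000040026, chromosome 7, 46711998 to 46715700 of GRCm38) encodes a serum amyloid A protein made in inflamed tissue. Its FPKM in saline-infused WT mice 1 to 5 was 0.306, 0.156, 0.0283, 0.257 and 0.120, and in Ang II-infused WT mice 973, 0.123, 0.0737, 3.53 and 35.3. Mouse 1 was far above and mouse 5 above the others, whereas mice 2 and 3 lay within the saline range. Every Ang II-infused Plod1-/- mouse was high, at 8.90, 18.0, 7.03, 9.38 and 13.9 FPKM, and none of them overlapped with the saline-infused mice at 0.162, 0.194, 0.643, 0.188 and 0.301. The SD in WT mice was 0.14 under saline and 4.14 under Ang II, a mean scaled deviation 3.50 higher (SE 0.33, limma adjusted p = 1.16e-21). The SD in Plod1-/- mice was 0.21 and 0.50 (adjusted p = 0.254), while the mean rose by 3.20 (limma adjusted p = 2.16e-05). A mean difference passed that test for 43.6% of the 7170 genes in WT and 45.8% in Plod1-/- mice. The change in spread differed between the genotypes (difference -3.21, SE 0.71, adjusted p = 0.0373). In WT mice the call on Saa3 held in 14 of the 16 alternative settings in which the adjusted p of single genes was taken, and was lost with deviations from the group median and without a variance trend. Squared deviations and the exact permutation test, which are not among the 16, called 0 WT genes, so the calls on Saa3, Acta1 and Ighg2c were lost there too. Saa3 reached a mean of 5 FPKM only in the 2 Ang II-infused groups. With 5 FPKM required in each group, the only WT call was Ucp1.

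Mouse 1 also led other acute phase genes of Ang II-infused WT mice. The FPKM of Lcn2, lipocalin 2, an iron-siderophore-binding protein of neutrophils and inflamed epithelium, was 0.760, 1.92, 2.70, 1.97 and 3.21 in saline-infused WT mice and 218, 3.94, 1.86, 1.93 and 17.4 in Ang II-infused WT mice. Like Saa3, Lcn2 reached a mean of 5 FPKM only in the 2 Ang II-infused groups. Serpina3n, an acute phase protease inhibitor, was at 44.5, 85.1, 77.2, 147 and 112 under saline and 1608, 27.8, 25.8, 35.6 and 69.6 under Ang II, so that mouse 1 was far above the highest saline-infused mouse and mice 2, 3 and 4 were below the lowest. Its mean difference did not pass in WT mice (log2 difference -0.13, adjusted p = 0.915), yet its SD was 0.64 and 2.49 (adjusted p for the spread 0.108). Of the 11 metallothionein and acute phase genes measured, 11 had the higher SD under Ang II in WT mice, with a median ratio of 3.42, and 8 in Plod1-/- mice, with a median ratio of 2.29. Saa3 was the 1 gene of the list called, in WT mice, and 6 in WT and 3 in Plod1-/- mice were more variable at an unadjusted p below 0.05. Over all genes 71% in WT and 79.2% in Plod1-/- mice had the higher SD, and 16.4% and 19.1% were more variable at that p. Without WT mouse 1 the median ratio in WT mice was 1.02.

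Macrophage genes were spread in WT mice mainly by mouse 1 as well. Lyz2, lysozyme of macrophages and neutrophils, was at 141, 97.0, 105, 93.9 and 78.0 FPKM in saline-infused and 1009, 218, 149.5, 151 and 224 FPKM in Ang II-infused WT mice, with mouse 1 apart from the rest. Spp1, osteopontin, was at 1.14, 2.62, 2.28, 4.18 and 2.74 under saline and 282, 18.0, 10.2, 9.37 and 30.2 under Ang II, where mouse 1 again led but all 5 mice lay above every saline-infused mouse. Of 22 macrophage genes measured, 22 had the higher SD under Ang II in WT mice (median ratio 3.01), from 1.40 (Csf1r) to 15.1 (Arg1). By limma 0 were called, with 9 more variable at an unadjusted p below 0.05. Over all genes in WT mice 71% had the higher SD and 16.4% were more variable at that p. The summed FPKM of the 25 listed macrophage markers was 3027, 733, 503, 503 and 746 in Ang II-infused WT mice 1 to 5 and 359 to 626 in saline-infused WT mice. Without mouse 1 the median ratio was 1.12. Of 8 neutrophil genes 8 had the higher SD, with a median ratio of 1.71, which turned to 0.795 without mouse 1 and was 5.92 without saline-infused mouse 5. The part of these immune cells in the spread of the acute phase genes was not tested.

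Acta1 (ENSMUSG00000031972, chromosome 8, 123891769 to 123894751), the alpha-actin of skeletal muscle, was the second gene called in WT mice. Its FPKM was 1.96, 0.337, 2.18, 0.460 and 0.306 under saline and 0.336, 141, 77.2, 8.30 and 111 under Ang II. Mice 2, 3 and 5 were high, mouse 4 was lower and mouse 1 lay within the saline range. The SD was 0.64 and 2.89, a mean scaled deviation 2.02 higher (SE 0.40, limma adjusted p = 0.00148), and the mean rose by 3.86 (limma adjusted p = 0.02). Acta1 of Plod1-/- mice ran from 0.845 to 3.40 under saline and from 0.270 to 2.60 under Ang II, with an SD ratio of 1.23 (adjusted p = 0.885). Acta1 passed the minimum of 5 FPKM through Ang II-infused WT mice alone. Its reads may be shared with the near-identical actins Acta2, Actg2 and Actc1. The call held in 10 of the 16 settings and was lost, among others, with a pseudocount of 0.1, with deviations from the group median, without a variance trend and without Ang II-infused mouse 1 or saline-infused mouse 3 or 5.

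The promoter of Acta1 is shown because serum response factor acts through CArG boxes in muscle genes. It is given for the 200 bases before the start in RefSeq (GRCm38.p6, chr8:123894776-123894975, minus strand, 5′ to 3′), with the CArG box, searched on both strands, in capitals. For comparison the same window of Myl9, a smooth muscle myosin light chain, is given (chr2:156775264-156775463, plus strand).
Acta1: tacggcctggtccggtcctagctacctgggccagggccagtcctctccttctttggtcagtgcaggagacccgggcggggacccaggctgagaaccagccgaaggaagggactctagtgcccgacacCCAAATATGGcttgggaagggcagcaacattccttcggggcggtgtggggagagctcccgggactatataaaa
Myl9: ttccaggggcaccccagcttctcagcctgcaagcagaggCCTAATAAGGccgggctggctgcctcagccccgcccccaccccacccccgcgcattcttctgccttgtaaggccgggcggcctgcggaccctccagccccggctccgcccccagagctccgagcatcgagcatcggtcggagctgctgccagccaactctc
The box ends 63 bases before the start in Acta1 and 151 bases before it in Myl9. Only exact matches to CCWWWWWWGG (W for A or T) were searched. Such a match was found in 389 of 32851 promoters of this length (1.18%). It was found in none of the windows of Acta2, Cnn1 and Itga8, whose levels also varied under Ang II. The Acta2 window does hold ccctatatgg and ccttgtttgg, each a letter away from that pattern, so the search does not show that Acta2 lacks such boxes. A match is a run of letters and was not tested as a site.

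Some fast skeletal muscle genes varied with Acta1, and other skeletal muscle genes did not. Tnnt3, fast skeletal troponin T, was at 2.31, 1.26, 0.862, 1.76 and 1.34 FPKM in saline-infused and 0.861, 70.1, 31.4, 3.04 and 48.6 FPKM in Ang II-infused WT mice, again with mice 2, 3 and 5 high (SD 0.31 and 2.34, adjusted p = 0.0781). It too passed the minimum through this group alone. Genes below the minimum mean were not tested, and those given with values here and further on were chosen after their values were seen. Myh4, a fast myosin heavy chain, was at 0.0429, 28.1, 16.7, 0.110 and 1.24 in Ang II-infused WT mice and at most 0.0614 in the other 15 mice. Pvalb, parvalbumin, a calcium buffer of fast fibres, was at 0.106, 41.0, 16.3, 0.301 and 7.97 against at most 0.185, so that both were highest in mice 2, 3 and 5. Of the 22 skeletal muscle markers 5 passed the minimum, and the summed FPKM of the 22 was 104, 771, 498, 390.1 and 535 in Ang II-infused WT mice and 199 to 466 in saline-infused WT mice. Tcap, a titin-capping protein that made up most of the sum in saline-infused mice (184 to 431 FPKM), did not go with the others, at 73.6, 294, 245, 358 and 205 under Ang II. Tnnc2, a fast skeletal troponin C, stayed below 0.1 FPKM in every Ang II-infused WT mouse. Of the 5 markers that passed, 4 had the higher SD under Ang II in WT mice, against 71% of all genes. Mb, myoglobin, had an SD ratio of 0.736 there. The part of muscle tissue in the spread of Acta1 and Tnnt3 was not tested.

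Ighg2c (ENSMUSG00000076612, chromosome 12, 113285325 to 113288932), the constant region of an immunoglobulin heavy chain of plasma cells, was the third gene called in WT mice. Its FPKM was 0, 0.167, 0.111, 0.0841 and 0 under saline and 1.17, 0.856, 0.405, 6.62 and 107 under Ang II, where mouse 5 was far above and mouse 4 above the rest. The SD was 0.10 and 2.59 (difference in scaled deviation 2.06, SE 0.48, limma adjusted p = 0.0417), and the mean difference of 2.34 did not pass (adjusted p = 0.0755). Igkc, the kappa light chain, was likewise highest in mouse 5, at 134, 45.6, 23.7, 40.4 and 541 against 1.55 to 9.01 under saline. Ighg2c of Plod1-/- mice was spread in both groups, from 0.635 to 7.85 and from 0.0853 to 5.16. Ighg2c passed the minimum of 5 FPKM through Ang II-infused WT mice alone. Reads of immunoglobulin genes may be split between near-identical copies, and the call was lost in 9 of 16 settings, among them without any 1 saline-infused mouse.

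Smooth muscle genes had a higher SD under Ang II in both genotypes, and in each a single Ang II-infused mouse lay nearest to the saline-infused mice. In WT mice that was mouse 4. Acta2, smooth muscle alpha-actin, was at 17399.5, 15201, 13026, 11783 and 12807 FPKM under saline and 4582, 6712, 8599, 14302 and 6989 under Ang II. Myh11, smooth muscle myosin heavy chain, was at 1353, 1191, 1213, 930.1 and 1199 under saline and 363, 522, 811, 1179.9 and 489 under Ang II. In both genes mouse 4 lay within the saline range and the other 4 mice below it. Itga8, an integrin subunit of smooth muscle, was nearly constant under saline, at 219, 233, 235, 232 and 238, and was at 71.1, 68.2, 114, 233 and 67.3 under Ang II, with an SD of 0.05 and 0.77 (adjusted p = 0.0934). It overlaps a gene on the opposite strand, and the library kit does not keep strand.

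In Plod1-/- mice the mouse nearest to the saline level was mouse 1, which also held Xist RNA. Acta2 was at 15416, 12424, 17685, 16292 and 15943 FPKM in saline-infused and 14456, 3470.0, 5460.0, 3276 and 1901 FPKM in Ang II-infused Plod1-/- mice, an SD of 0.19 and 1.10 (adjusted p = 0.146). Cnn1, calponin of the contractile apparatus, was at 831, 757, 1037, 928 and 897 under saline and 1135, 213, 328, 179 and 124 under Ang II, where mouse 1 lay above every saline-infused mouse and mice 2 to 5 below. Myh11 was at 801, 307, 212, 171 and 166 under Ang II, all below the saline-infused mice at 1087 to 1522. The mean of Acta2 fell by 0.86 in WT (limma adjusted p = 0.0257) and fell by 1.80 in Plod1-/- mice (adjusted p = 0.00832). Of 17 smooth muscle genes measured, 15 had the higher SD under Ang II in WT (median ratio 2.68) and 17 in Plod1-/- mice (median ratio 4.10). By limma 0 were called in either, with 8 and 11 more variable at an unadjusted p below 0.05. Over all genes 71% in WT and 79.2% in Plod1-/- mice had the higher SD, and 16.4% and 19.1% were more variable at that p. The ratio was highest for Actg2 in WT (6.63) and for Cnn1 in Plod1-/- mice (7.23). Without the farthest mouse, 4 in WT and 1 in Plod1-/- mice, the median ratios were 1.75 and 2.07, and without both libraries that held Xist RNA 1.82. Acta2 in mice 2 to 5 of the Plod1-/- group alone ran from 1901 to 5460.0.

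**Figure D2:**
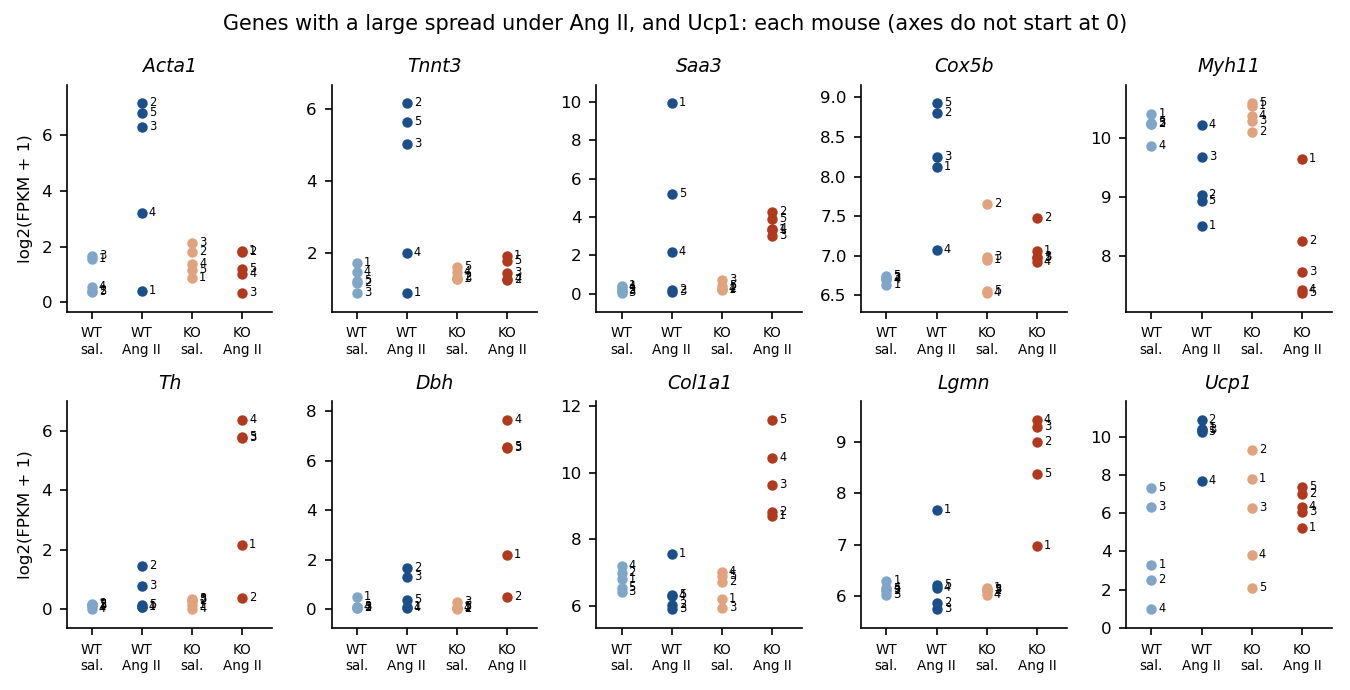
Each panel plots log2(FPKM + 1) of a gene (y axis, not starting at 0) in the 20 mice, grouped on the x axis and numbered within the group. Acta1 and Tnnt3 are high in Ang II-infused WT mice 2, 3 and 5, Saa3 is highest in mouse 1, Cox5b is low in mouse 4, Th and Dbh are high in Ang II-infused Plod1-/- mice 3, 4 and 5, Myh11 is highest in mouse 1 of that group, and Ucp1 spreads widely in both saline-infused groups.

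Nuclear genes of energy metabolism had mostly a higher SD under Ang II in WT mice and mostly a lower one in Plod1-/- mice. Cox5b, a subunit of cytochrome c oxidase encoded in the nucleus, was at 98.1, 104, 104, 103 and 106 FPKM in saline-infused WT mice, a range of a few FPKM, and at 278, 447, 304, 134 and 485 in Ang II-infused WT mice. All 5 of these lay above every saline-infused mouse, mouse 4 by the least. The SD was 0.04 and 0.73 (ratio 17.4, adjusted p = 0.0934), whereas in Plod1-/- mice it was 0.46 and 0.22 (ratio 0.493, adjusted p = 0.414). Of 25 nuclear genes of the respiratory chain, 23 had the higher SD under Ang II in WT mice (median ratio 3.51) and 2 in Plod1-/- mice (median ratio 0.617). By limma 0 were called in either, with 17 more variable in WT and 4 less variable in Plod1-/- mice at an unadjusted p below 0.05. Over all genes these shares were 16.4% and 0.934%. The WT ratio was 1.98 without Ang II-infused mouse 4, and the Plod1-/- ratio was 0.977 without saline-infused mouse 2. For the 12 genes of the mitochondrial genome, 9 in WT and 12 in Plod1-/- mice had the higher SD, against 71% and 79.2% of all genes. Their median ratios were 1.26 and 2.04, and 0.671 without WT mouse 4, the opposite direction, and 1.02 without Plod1-/- mouse 1. mt-Nd1, a subunit of complex I, was at 14989, 4162, 4529.6, 5712 and 4118 in Ang II-infused Plod1-/- mice, where mouse 1 was high.

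Aldoa, the aldolase of glycolysis, was at 227, 238, 234, 218 and 269 under saline and 754, 1052, 749.9, 267 and 916 under Ang II in WT mice, with mouse 4 within the saline range (SD 0.11 and 0.78, adjusted p = 0.105). Of 16 glycolysis genes 14 had the higher SD in WT (median ratio 2.60, 1.08 without mouse 4) and 6 in Plod1-/- mice (median ratio 0.768). Over all genes 71% in WT and 79.2% in Plod1-/- mice had the higher SD. Among 27 cytoplasmic ribosomal protein genes, 27 in WT mice and 7 in Plod1-/- mice had the higher SD, with median ratios of 1.99 (1.29 without Ang II-infused mouse 1) and 0.855. The ratio in Plod1-/- mice was 2.28 without saline-infused mouse 3, the opposite direction. Differences between the genotypes in these classes were tested for single genes only, where none of their members was called. The summed FPKM of 18 brown fat markers was 2976, 5908, 3929, 795 and 4769 in Ang II-infused WT mice 1 to 5, lowest in mouse 4 as for Cox5b and Aldoa, and the part of brown fat in the spread of these genes was not tested.

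Genes of sympathetic neurons made up 3 of the 4 calls in Plod1-/- mice. Dbh (ENSMUSG00000000889, chromosome 2, 27165233 to 27183200) encodes dopamine beta-hydroxylase, which makes noradrenaline. Its FPKM was 0.0521, 0, 0.212, 0.0260 and 0.0663 in saline-infused and 3.57, 0.424, 89.7, 198 and 92.7 in Ang II-infused Plod1-/- mice. Th (ENSMUSG00000000214, chromosome 7, 142892752 to 142931128), tyrosine hydroxylase, the rate-limiting enzyme of catecholamine synthesis, was at 0.104, 0.214, 0.274, 0.0148 and 0.241 and 3.53, 0.312, 53.0, 81.4 and 55.1. Prph (ENSMUSG00000023484, chromosome 15, 99055174 to 99058978), peripherin, an intermediate filament of peripheral neurons, was at 0.451, 0.433, 0.755, 0.526 and 0.536 and 3.71, 0.522, 48.2, 114 and 53.0. In all 3 genes Ang II-infused mice 3, 4 and 5 were high, mouse 1 was far lower and mouse 2 lay near the saline-infused mice. The SDs of Dbh were 0.11 and 3.13 (difference in scaled deviation 2.90, SE 0.50, limma adjusted p = 4.94e-05). Those of Th were 0.14 and 2.66 (2.39, SE 0.53, adjusted p = 0.0118), and those of Prph 0.12 and 2.65 (2.41, SE 0.53, adjusted p = 0.0118). The means rose as well, by 4.58, 3.88 and 3.59 (limma adjusted p = 0.011, 0.0113 and 0.0163). All 3 genes passed the minimum through this group alone. Their calls were lost without Ang II-infused mouse 2 and without the 2 libraries that held Xist RNA, one of them Ang II-infused mouse 1, and those of Th and Prph also without Ang II-infused mouse 1 or saline-infused mouse 1, 4 or 5. All 3 calls were also lost with deviations from the group median and without a variance trend, and those of Th and Prph with a pseudocount of 0.1. Squared deviations and the exact permutation test called 0 genes in Plod1-/- mice.

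The promoters of Th and Prph are shown because the cAMP response element (CRE) of Th is known to drive it in catecholamine neurons. Each window covers 200 bases before the start in RefSeq (GRCm38.p6), chr7:142899996-142900195 on the minus strand and chr15:99054974-99055173 on the plus strand, 5′ to 3′, with a CRE (TGACGTCA, which reads the same on both strands) in capitals.
Th: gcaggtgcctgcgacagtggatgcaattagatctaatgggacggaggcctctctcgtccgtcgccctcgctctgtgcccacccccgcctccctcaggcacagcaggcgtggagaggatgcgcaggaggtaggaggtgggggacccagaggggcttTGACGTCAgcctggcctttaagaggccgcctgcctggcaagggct
Prph: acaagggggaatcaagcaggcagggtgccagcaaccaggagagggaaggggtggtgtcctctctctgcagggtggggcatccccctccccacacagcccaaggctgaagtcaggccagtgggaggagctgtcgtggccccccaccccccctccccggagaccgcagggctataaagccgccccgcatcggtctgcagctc
The CRE of Th ends 37 bases before the start. The 8 letters occur in 483 of 32851 promoters of this length (1.47%), not in those of Prph and Dbh.

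Other neuronal genes were high in the same 3 mice. Ngfr, the p75 neurotrophin receptor, was at 0.882, 0.653, 16.6, 53.2 and 30.9 in Ang II-infused Plod1-/- mice and at most 0.998 in the other 15 mice. Npy, neuropeptide Y, a co-transmitter of sympathetic neurons, was at 14.1, 6.64, 158, 439 and 77.6, and Tubb3, a neuronal tubulin, at 19.8, 9.90, 101, 169 and 96.6. The means of the 3 genes rose, that of Tubb3 by 4.31 (limma adjusted p = 5.62e-04), while their spreads did not pass (adjusted p = 0.0604, 0.143 and 0.146). Gap43, a growth cone protein, was at 4.75, 1.70, 50.8, 69.2 and 26.3 in Ang II-infused Plod1-/- mice and at 0.750, 0.862, 0.857, 0.343 and 0.505 in Ang II-infused WT mice. Its change in spread differed between the genotypes (difference 1.93, SE 0.44, limma adjusted p = 0.0373), as did that of Prph (difference 2.33, SE 0.52, adjusted p = 0.0373). Ngfr, Npy, Tubb3 and Gap43 passed the minimum through Ang II-infused Plod1-/- mice alone, and with 5 FPKM required in each group 0 genes differed between the genotypes. In WT mice the largest value of Th was 1.74 and of Dbh 2.17 FPKM, both in Ang II-infused mouse 2.

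The whole list of 20 nerve and Schwann cell markers, of which 6 passed the minimum, gave summed FPKM values of 106, 88.4, 396, 653 and 392 in Ang II-infused Plod1-/- mice, against 86.1 to 113 in saline-infused Plod1-/- mice and 107 to 126 in Ang II-infused WT mice. Slc6a2, the noradrenaline transporter, was at 0.556, 0.277, 15.9, 32.6 and 27.7 in Ang II-infused Plod1-/- mice and at most 0.434 elsewhere. Pnmt, which makes adrenaline in the adrenal medulla, was at 0.267, 0.378, 0.163, 0 and 0.154 there. It reached 3.68 FPKM in saline-infused Plod1-/-, 3.26 in saline-infused WT and 2.66 in Ang II-infused WT mice. In Ang II-infused Plod1-/- mice, 5 of 11 adrenal cortex markers stayed below 0.1 FPKM in every mouse, Nr5a1, Cyp11b1 and Cyp11b2 among them. The sum of the 11 was 6.71 to 12.0 FPKM. In the other groups 6 to 8 of the 11 stayed below 0.1 FPKM. The amount of nerve and ganglion tissue in each sample was not measured, and its part in these spreads was not tested.

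Gm10800 (ENSMUSG00000075014, chromosome 2, 98666547 to 98667301), a predicted gene of unknown function, was the fourth gene called in Plod1-/- mice, at 183, 89.9, 94.8, 37.9 and 324 FPKM under saline and 286, 43.5, 857, 9.96 and 2.79 under Ang II. Mouse 3 was the highest and mice 4 and 5 lay below every saline-infused mouse (SD 1.16 and 3.23, difference in scaled deviation 1.89, SE 0.40, limma adjusted p = 0.00744). The mean difference did not pass (log2 difference -1.09, adjusted p = 0.529). Gm10801 and Gm21738, predicted genes of unknown function, had the same order of mice, at 10.6, 1.47, 30.5, 0.641 and 0 and 20.5, 2.41, 59.3, 1.21 and 0.417. The names may stand for near-identical copies whose reads cannot be assigned with certainty. The call on Gm10800 was lost in 8 of 17 settings, among them without Ang II-infused mouse 1, 3, 4 or 5, without the 2 libraries that held Xist RNA, with deviations from the group median and without a variance trend.

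All 13 fibrillar collagen genes and their partners had the higher SD under Ang II in both genotypes, against 71% of all genes in WT and 79.2% in Plod1-/- mice. Col1a1, a chain of type I collagen, was at 72.6, 105, 59.9, 128 and 119 FPKM in saline-infused and 413, 450.0, 790.1, 1383 and 3049 FPKM in Ang II-infused Plod1-/- mice. All 5 Ang II-infused mice lay above the saline-infused mice, with mouse 5 the highest and mouse 1 the lowest. The SD was 0.47 and 1.20 (ratio 2.56, adjusted p = 0.347), and the mean rose by 3.27 (limma adjusted p = 5.65e-04). Col3a1, of type III collagen, was at 307, 379, 769, 803 and 1893, again with mouse 5 the highest and mouse 1 the lowest, though it overlaps a predicted gene on its own strand. In WT mice Col1a1 was at 112, 127, 85.1, 145 and 92.2 and 187, 64.0, 58.8, 78.1 and 79.1, where mouse 1 was apart above and the mean difference did not pass (log2 difference -0.38, adjusted p = 0.298). The median ratio of the 13 genes was 1.95 in WT and 2.97 in Plod1-/- mice. By limma 0 were called, with 2 in WT and 3 in Plod1-/- mice more variable at an unadjusted p below 0.05, against 16.4% and 19.1% of all genes. The lowest median ratio on leaving out a mouse was 1.20 without WT mouse 1 and 2.14 without Plod1-/- mouse 5.

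Genes that modify and fold collagen had the higher SD under Ang II in shares from below to above those of all genes, 71% in WT and 79.2% in Plod1-/- mice. Of 14 collagen hydroxylase and lysyl oxidase genes, 11 in WT and 12 in Plod1-/- mice had the higher SD, with median ratios of 1.78 and 2.74. P3h1, prolyl 3-hydroxylase of the procollagen complex, was at 19.4, 18.4, 18.2, 17.5 and 18.0 under saline, a narrow range, and 23.7, 24.4, 41.4, 33.0 and 46.1 under Ang II in Plod1-/- mice, an SD ratio of 8.24 (adjusted p = 0.143). Thbs2, the matricellular protein thrombospondin-2, was at 9.11, 7.86, 8.22, 8.35 and 9.02 and 13.5, 22.2, 24.9, 58.6 and 137, where mice 4 and 5 were the highest (ratio 15.8, adjusted p = 0.143). Of 19 genes that fold proteins in the endoplasmic reticulum, 10 in WT mice and 19 in Plod1-/- mice had the higher SD, with median ratios of 1.07 (0.786 without mouse 4) and 2.71. Calr, calreticulin, a chaperone, was at 277, 287, 265, 271 and 269 under saline and 471, 373, 561, 379 and 316 under Ang II in Plod1-/- mice, all above the saline-infused mice (SD 0.04 and 0.32, adjusted p = 0.146). Saline-infused Plod1-/- mice were close together in these folding genes, with a median SD of 0.117 against 0.236 in saline-infused WT mice. By limma 0 of the folding genes were called, with 1 in WT and 9 in Plod1-/- mice more variable at an unadjusted p below 0.05. Over all genes these shares were 16.4% and 19.1%.

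Myeloid genes were high in every Ang II-infused Plod1-/- mouse but by different amounts. Hmox1, haem oxygenase 1, was at 10.3, 15.1, 11.3, 7.87 and 7.38 FPKM under saline and 218, 1385, 1391, 1516 and 602 under Ang II, and Arg1, arginase 1 of macrophages, at 1.51, 2.63, 1.76, 0.503 and 1.09 and 25.3, 150.1, 167, 340.2 and 27.1. Neither gene overlapped between the groups, and mouse 1 was the lowest in both. How many of all genes lacked overlap was not counted. Arg1 passed the minimum of 5 FPKM through Ang II-infused Plod1-/- mice alone. Lgmn, the lysosomal protease legumain, was at 69.7, 67.0, 67.7, 63.3 and 67.7 under saline, within a few FPKM, and at 125, 513, 625, 693 and 333 under Ang II (SD 0.05 and 1.00, ratio 20.0, adjusted p = 0.143). Of 22 macrophage genes 19 had the higher SD in Plod1-/- mice, against 79.2% of all genes, with a median ratio of 1.65. Without mouse 1 the median ratio was 0.913, the opposite direction (0.849 without both libraries that held Xist RNA). The 8 neutrophil genes kept a ratio above 1, at 4.01 with and 2.62 without mouse 1. Over the alternative settings their median log2 ratio fell as low as 0.795, against 0.758 for all genes in the main setting. Their mean under saline was 0.754 in log2(FPKM + 1), near the floor of that scale. Among them, Csf3r and Mmp9 passed the minimum through Ang II-infused Plod1-/- mice alone. Csf3r, the receptor for granulocyte colony-stimulating factor, was at 0.360, 0.373, 0.623, 0.291 and 0.306 under saline and 4.28, 39.0, 65.5, 60.0 and 23.9 under Ang II (ratio 11.2, adjusted p = 0.143). The summed FPKM of 19 neutrophil markers was 207, 371, 964, 879 and 472 in Ang II-infused and 4.59 to 10.1 in saline-infused Plod1-/- mice.

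**Figure D3:**
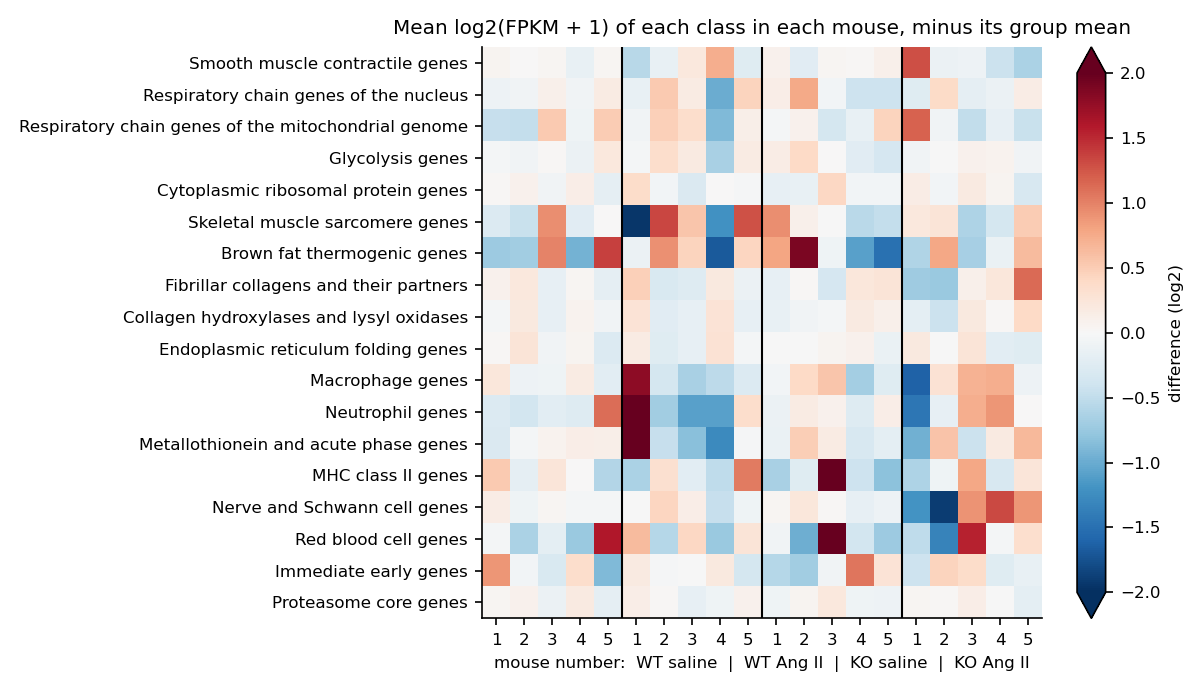
Each cell is the mean log2(FPKM + 1) of a gene class in a mouse minus the mean of its group, for 18 classes (rows) and 20 mice (columns, numbered within the 4 groups), in red above and blue below the group mean, with the colour scale ending at 2 in either direction. In Ang II-infused WT mice, mouse 1 is high in macrophage, neutrophil and acute phase genes and mouse 4 is high in smooth muscle and low in respiratory chain genes, and in Ang II-infused Plod1-/- mice, mouse 1 is high in smooth muscle genes and mice 3, 4 and 5 in nerve genes.

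The classes differed in how far their spread moved. Among classes of at least 5 measured genes, the lowest median ratios in WT mice were those of the 19 immediate early genes (0.525) and of 7 red blood cell genes (0.616, but 1.49 without saline-infused mouse 5). In Plod1-/- mice they were those of 6 MHC class II genes (0.449), 25 nuclear respiratory chain genes (0.617) and 14 brown fat genes (0.682). Without saline-infused Plod1-/- mouse 2 the latter 2 classes stood at 0.977 and 0.992. Ratios near 1 in both genotypes were found for 20 proteasome genes (0.891 in WT and 1.08 in Plod1-/- mice), 15 endothelial genes (0.971 and 1.04) and 19 white fat genes (0.853 and 1.13), below the medians of all genes. Leaving out single mice turned their direction, with extremes of 0.776 and 1.11 in WT and 0.765 and 1.68 in Plod1-/- mice for proteasome genes, 0.712 and 1.12 in WT and 0.602 and 1.19 in Plod1-/- mice for endothelial genes, and 0.871 and 1.84 in Plod1-/- mice for white fat genes. White fat genes in WT mice stood at 0.462 without Ang II-infused mouse 4. Heat shock genes (16) and Myc and ribosome biogenesis genes (15) were below 1 in WT mice, at 0.789 and 0.758 (0.321 and 0.496 without Ang II-infused mouse 4). Without saline-infused WT mouse 1 heat shock genes stood at 0.988, and without saline-infused WT mouse 4 ribosome biogenesis genes at 0.847. Both classes were above 1 in Plod1-/- mice, at 1.79 and 1.93 (1.26 and 1.47 without Ang II-infused mouse 1). Ribosome biogenesis genes stood at 3.12 without saline-infused Plod1-/- mouse 3. The TGF-beta class of 15 ligands, receptors and targets stood at 1.37 and 2.65, and at 0.714 without WT mouse 4 and 1.07 without Plod1-/- mouse 1. Of the genes in all lists, limma called Saa3 and Acta1 in WT and Dbh and Th in Plod1-/- mice.

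**Figure D4:**
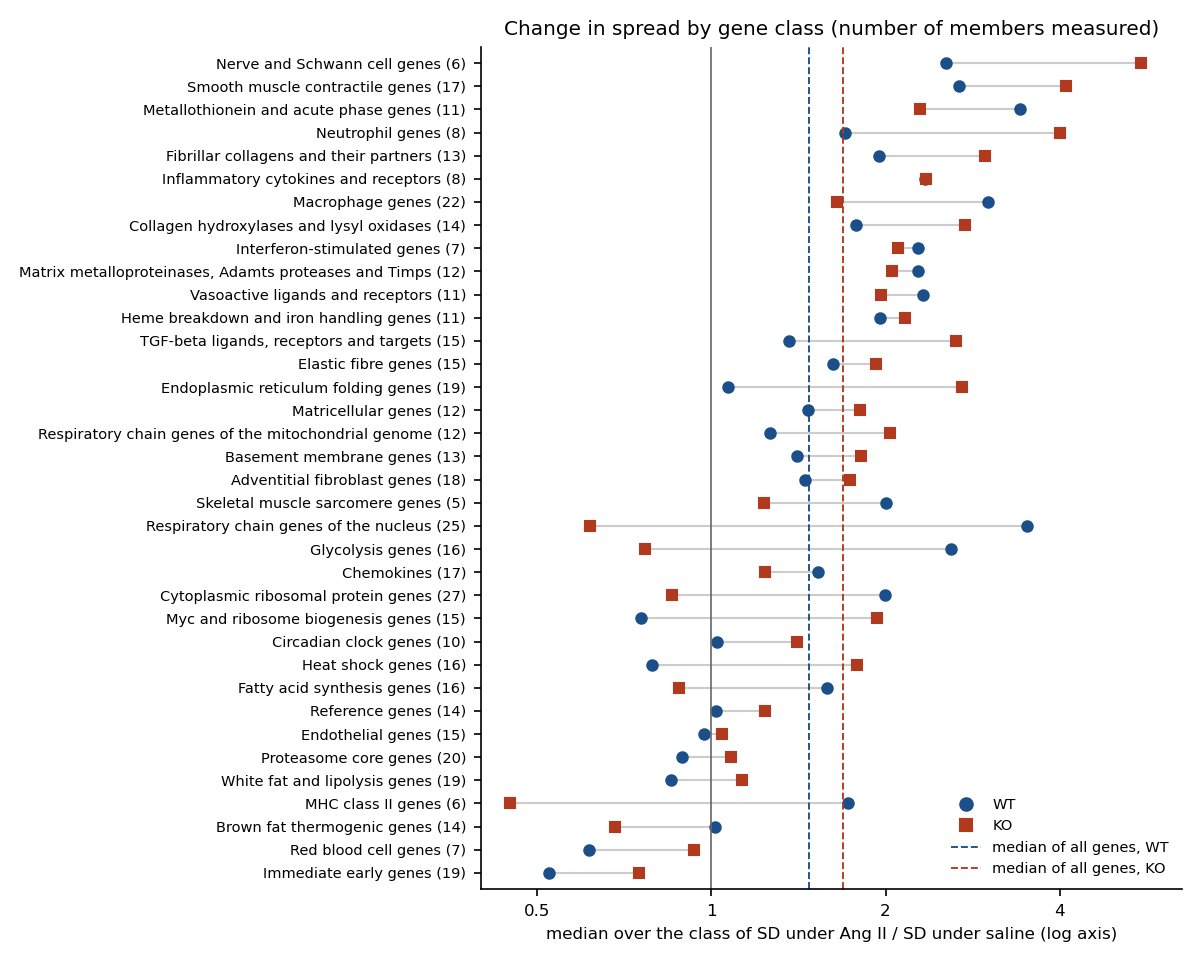
Each line is a gene class with at least 5 measured members (their number in parentheses), placed on a log x axis by the median over its members of the SD under Ang II divided by the SD under saline, for WT (circles) and Plod1-/- mice (squares), with the medians of all genes, 1.48 and 1.69, as dashed lines. Smooth muscle genes lie to the right in both genotypes (2.68 and 4.10), nuclear respiratory chain genes to the right in WT (3.51) and to the left in Plod1-/- mice (0.617), and immediate early genes to the left in both (0.525 and 0.749).

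Some genes spread under Ang II while their mean moved by less than 0.5 (log2). The SD was at least 2 times as high for 1181 of 4704 such genes in WT (25.1%). In Plod1-/- mice it was so for 1536 of 4408 (34.8%). The genes named here and in the next paragraph were picked from these for a small p-value of the spread. Their narrow saline ranges are thus a part of how they were picked. Derl1, a membrane protein of endoplasmic reticulum-associated degradation, was at 46.6, 46.5, 46.0, 46.3 and 45.9 FPKM in saline-infused WT mice, a range under 1 FPKM, and at 52.2, 64.9, 62.0, 49.2 and 63.7 in Ang II-infused WT mice. All 5 of these lay above the saline-infused mice, with mice 1 and 4 nearest to them (SD 0.01 and 0.18, adjusted p = 0.0934). C1galt1c1, a chaperone for O-glycosylation, was at 19.1, 18.8, 19.1, 18.8 and 18.6 under saline and 14.8, 12.8, 12.8, 25.1 and 14.1 under Ang II, where mouse 4 lay above and the others below every saline-infused mouse. Its mean difference was -0.28 (adjusted p = 0.177) and its SD ratio 25.4 (adjusted p for the spread 0.0934). Wls, a sorting receptor for Wnt proteins, had the same shape, at 15.8, 15.6, 15.5, 14.9 and 15.7 and 12.0, 7.40, 9.70, 18.8 and 8.74, with mouse 4 above and the others below every saline-infused mouse.

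Ctso, cathepsin O, was at 6.12, 6.04, 5.99, 5.67 and 5.99 under saline and 2.47, 7.82, 6.36, 6.37 and 8.09 under Ang II in Plod1-/- mice, with mouse 1 below and mice 2 to 5 above every saline-infused mouse. The mean difference was -0.02 (adjusted p = 0.941) and the SD ratio 15.5 (adjusted p for the spread 0.143). Cfl2, the cofilin of muscle, was at 43.3, 41.6, 42.8, 44.2 and 42.5 and 60.2, 28.1, 29.0, 27.7 and 21.2, and Fads3, of the fatty acid desaturase family, at 55.7, 56.6, 59.2, 57.5 and 61.5 and 126, 34.7, 46.9, 57.2 and 41.9, both with mouse 1 above the saline range and mouse 2 below it. Gna13, a G protein alpha subunit, was at 6.06, 5.89, 5.78, 5.84 and 5.88 and 5.67, 8.46, 10.1, 11.0 and 9.35, where mouse 1 was just below the saline range and the others were above it. In WT mice Cfl2 was at 45.2, 46.2, 47.5, 44.2 and 44.3 and 26.4, 22.6, 27.2, 46.0 and 25.5, with mouse 4 within the saline range. Cfl2 overlaps another gene, so its value is uncertain. The spread of Cfl2, Fads3 and Gna13 did not pass in Plod1-/- mice either (adjusted p = 0.143 for each). Mouse 1, which lay on the other side of the saline range from most mice in Ctso, Cfl2, Fads3 and Gna13, held Xist RNA.

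Genes with less spread under Ang II were fewer, and none was called. Ucp1, the uncoupling protein of brown fat, had the largest SD of all genes in both saline-infused groups. Its FPKM was 8.77, 4.68, 79.3, 0.955 and 159.9 in saline-infused and 1356, 1879, 1317, 208 and 1201 in Ang II-infused WT mice, and 219.8, 621, 75.4, 12.9 and 3.18 and 36.6, 126, 66.5, 80.2 and 165 in Plod1-/- mice. In WT mice all Ang II-infused animals lay above the saline-infused ones, whereas in Plod1-/- mice they lay within the saline range. The SD was 2.67 and 1.26 in WT (adjusted p = 0.0934) and 2.93 and 0.83 in Plod1-/- mice (adjusted p = 0.0628). The 18 brown fat markers together summed to 105, 105, 415, 97.8 and 573 FPKM in saline-infused WT mice 1 to 5 and to 721, 1785, 319, 126 and 90.7 in saline-infused Plod1-/- mice. The median ratio of the brown fat genes in WT mice was 1.02 and turned below 1, to 0.522, without Ang II-infused mouse 4.

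Kin, a nucleic acid-binding protein, was at 16.9, 10.4, 14.3, 12.96 and 10.6 in saline-infused and 10.7, 10.4, 10.9, 10.6 and 10.8 in Ang II-infused WT mice (SD 0.27 and 0.02, adjusted p = 0.0934, mean difference -0.24). Hdac7, a class IIa histone deacetylase, was at 14.1, 33.3, 24.3, 32.2 and 22.9 and 16.2, 16.6, 17.5, 17.0 and 17.4 (SD 0.47 and 0.04, adjusted p = 0.0976), and Vmac, a coiled-coil protein of vimentin filaments, at 8.09, 4.73, 9.02, 6.55 and 9.33 and 10.5, 10.7, 10.6, 11.4 and 10.4 (SD 0.35 and 0.05, adjusted p = 0.106). Hdac7 and Kin overlapped between the groups, whereas all Ang II-infused mice lay above the saline-infused ones in Vmac. Vmac of Plod1-/- mice was at 13.9, 12.4, 12.6, 11.8 and 11.8 under saline and 5.88, 10.2, 6.04, 6.94 and 7.99 under Ang II, an SD ratio of 3.19. Hdac7 and Vmac overlap other genes, so their values are uncertain. Uqcrq, a subunit of respiratory complex III, was at 73.3, 142, 78.4, 55.6 and 53.4 and 113, 107, 103, 98.1 and 102 in Plod1-/- mice, with saline-infused mouse 2 high, and Ccdc58 at 6.59, 9.59, 7.83, 6.81 and 6.61 and 11.5, 11.0, 11.8, 11.6 and 11.1. The SD ratios were 0.141 and 0.189, and neither passed (adjusted p = 0.146 and 0.149).

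Immediate early genes had mostly the higher SD under saline. Arc, an immediate early gene best known from neurons, was at 139, 8.45, 7.97, 9.65 and 5.17 FPKM in saline-infused and 1.89, 5.59, 4.33, 3.36 and 5.82 in Ang II-infused WT mice, with saline-infused mouse 1 apart. Egr1, a zinc finger transcription factor of the early response, was at 611, 156, 141, 218 and 81.9 and 12.97, 10.4, 15.8, 18.8 and 11.8, with no overlap, and its mean fell by 3.70 (limma adjusted p = 0.0019). Of the 19 immediate early genes measured, 3 in WT and 6 in Plod1-/- mice had the higher SD under Ang II, against 71% and 79.2% of all genes. Their median ratio in Plod1-/- mice was 1.01 without saline-infused mouse 4. MHC class II genes were spread in saline-infused Plod1-/- mice by mouse 3. H2-Aa, an MHC class II alpha chain, was at 17.0, 24.3, 174, 24.7 and 15.0 under saline and 34.1, 53.7, 102, 44.1 and 83.9 under Ang II, and without saline-infused mouse 3 the median ratio of the 6 genes turned from 0.449 to 2.19. Myl7, an atrial myosin light chain, was at 0.430, 0.626, 38.3, 0 and 5.18 in saline-infused WT and 65.4, 1.14, 1.74, 0.119 and 0.0605 in saline-infused Plod1-/- mice, high in mouse 3 and in mouse 1. Hba-a1, a haemoglobin alpha chain, whose reads may be shared with Hba-a2, was at 125, 77.8, 108, 56.5 and 565 in saline-infused WT, 60.3, 23.0, 602, 65.7 and 31.7 in saline-infused Plod1-/- and 579.6, 331, 4256, 895 and 1131 in Ang II-infused Plod1-/- mice.

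**Figure D5:**
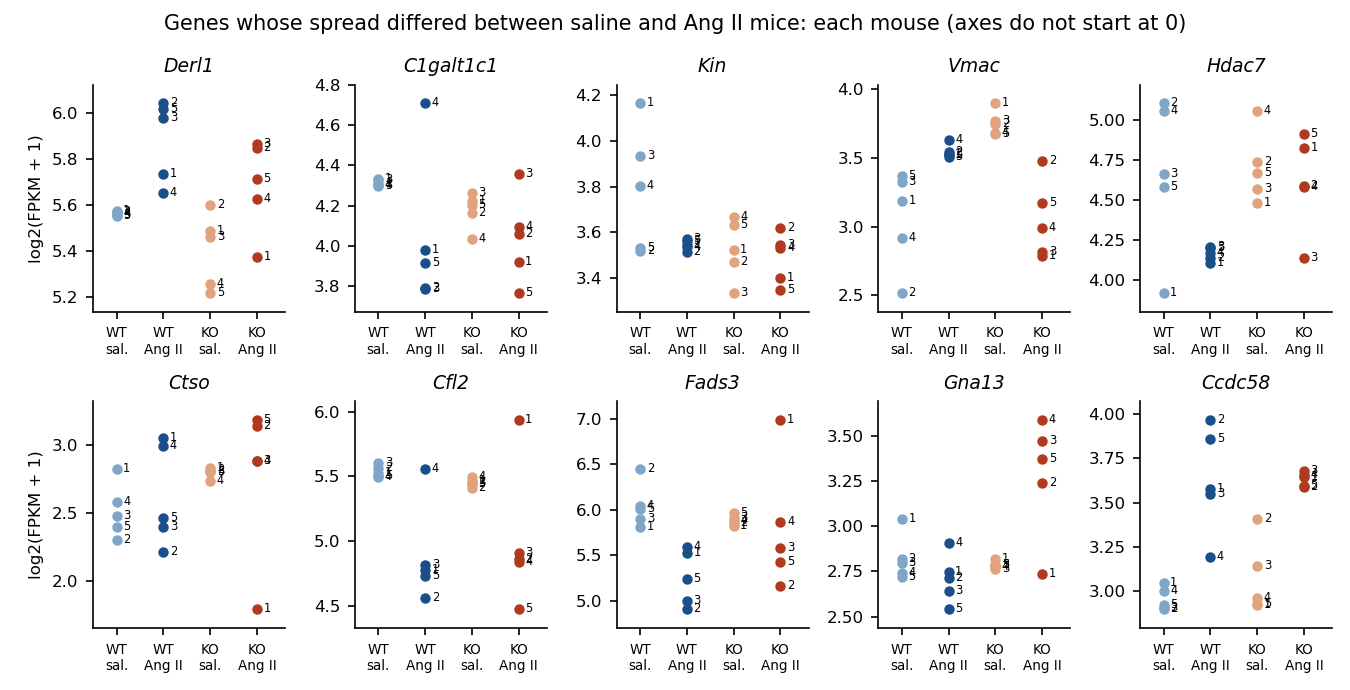
Each panel plots log2(FPKM + 1) of a gene (y axis, not starting at 0) in the 20 mice, grouped on the x axis and numbered within the group. Derl1 and C1galt1c1 lie close together in saline-infused WT mice and spread under Ang II, Kin, Vmac and Hdac7 spread in saline-infused WT mice and lie close together under Ang II, and Ctso, Cfl2, Fads3 and Gna13 have Ang II-infused Plod1-/- mouse 1 apart from the other 4.

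Whether the change in spread differed between the genotypes was tested over all 20 mice. It was larger in Plod1-/- mice for 2 genes (0.0279%), Prph and Gap43, and larger in WT mice for 2 genes (0.0279%), Saa3 and 1110008P14Rik, all at an adjusted p of 0.0373. At an unadjusted p below 0.05 the numbers were 580 (8.09%) and 361 (5.03%). 1110008P14Rik (ENSMUSG00000039195, chromosome 2, 32377097 to 32381938), a gene of unknown function that overlaps Ciz1 on the opposite strand, was at 10.3, 10.8, 10.4, 11.3 and 11.1 FPKM in saline-infused and 46.8, 31.6, 20.0, 10.2 and 40.1 FPKM in Ang II-infused WT mice. Mouse 4 lay just below the saline range and the others above it. In Plod1-/- mice it was at 9.99, 15.7, 12.8, 10.5 and 11.2 and 20.1, 21.7, 20.6, 23.4 and 22.9, close together and above every saline-infused mouse. The difference in the change of spread was -0.83 (SE 0.19). Prkar1a, a regulatory subunit of protein kinase A, came next among the genes that did not pass (adjusted p = 0.0701), at 85.2, 72.9, 96.6, 137 and 74.4 in Ang II-infused WT mice, where mouse 4 was just above the saline range of 129 to 136 and the others below it, and at 84.7, 91.1, 93.1, 94.6 and 92.2 in Ang II-infused Plod1-/- mice. Each of the 4 calls held in 12 of 27 settings and was lost with a pseudocount of 0.1, with deviations from the group median, without a variance trend and whenever a saline-infused mouse of either genotype was left out. With squared deviations, which are not among the 27, 0 genes were called. Those of Prph, Gap43 and 1110008P14Rik were also lost without Ang II-infused WT mouse 4, those of Prph and Gap43 without mouse 5 of that group, and that of Saa3 without its mouse 1.

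Among genes the study names, the spread passed in neither genotype for Thbs1, Ccl2, Mmp2, Mmp9, Cd47 and Acta2. Thbs1, thrombospondin-1, was at 4.29, 5.58, 16.0, 24.1 and 21.7 FPKM in saline-infused and 130.0, 63.2, 144, 156 and 189 in Ang II-infused Plod1-/- mice, without overlap. It overlaps a predicted gene, so its value is uncertain. Its SD was 1.04 and 0.60 (ratio 0.574, adjusted p = 0.393), while its mean rose by 3.34 (limma adjusted p = 3.21e-04). Cd47, a receptor of thrombospondin-1, was at 12.3, 21.8, 25.3, 25.4 and 23.5 in Ang II-infused Plod1-/- mice, with mouse 1 below and the others above the saline range of 13.5 to 16.9 (ratio 3.09, adjusted p = 0.287). Ccl2, a monocyte chemokine, was at 22.1, 52.5, 89.1, 92.0 and 43.8 and Mmp2, gelatinase A, at 50.7, 71.0, 71.3, 107 and 209 in Ang II-infused Plod1-/- mice, ratios of 1.27 and 3.07. Mmp9, gelatinase B, was at 4.65, 23.5, 72.4, 59.9 and 17.4 there and at 12.6, 2.69, 2.28, 2.43 and 2.77 in Ang II-infused WT mice, highest in mouse 1. Mmp9 passed the minimum of 5 FPKM through Ang II-infused Plod1-/- mice alone. Il6 and Tnf did not reach the minimum mean, and were at 3.44, 8.20, 6.27, 10.3 and 7.64 and 0.446, 0.840, 2.30, 2.39 and 0.584 in Ang II-infused Plod1-/- mice.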

How the data were processed

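Abdominal aorta RNA was sequenced in 20 mice, 5 in each of 4 groups. The authors deposited FPKM values per gene. Their methods name a TruSeq kit, which does not keep strand, HISAT2 and normalization across libraries, whereas the processing notes of the submitters name HISAT2 2.1.0, Bowtie2 2.2.3, HTSeq 0.6.0 and build mm10, so which tool made the values is not settled. No counts were used, so depth and counting error are unknown and 5 mice per group limit the precision.

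Values were taken as log2(FPKM + 1), for genes with a mean of at least 5 FPKM over all mice. Deviations from the group mean, multiplied by the square root of n/(n - 1), were compared between Ang II and saline with limma 3.58.1 (R 4.3.3, variance trend, 10 mice of a genotype, all 20 for the difference between genotypes), with Benjamini-Hochberg adjustment over 7170 genes at 0.05. The test was tried on simulated data first. Mean differences were tested with limma on log2(FPKM + 1). Distances of mice were compared by a two-sided exact permutation test.

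Named genes were, by rule, up to 10 called or smallest-p genes with more and 5 with less spread per genotype, 10 with a stable mean, the 10 largest SDs per group, the 10 smallest p-values for the difference between genotypes, genes of the 44 lists and genes the study names. The members and lists were chosen with earlier results of these data known. Gene positions are of GRCm38, and promoters and gene symbols were matched by name or ID to RefSeq tables (GRCm38.p6). Alternatives changed the pseudocount, the minimum FPKM, the normalization, the centre, the deviation, the trend, the samples and the replicate block.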

Additional observations from a re-analysis of the deposited data

Results flagged for a closer look

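Of 248 sets of 5 mice (61 named genes and the distances of the mice from their group, each in 4 groups), 23 sets (9.27%) held a single mouse whose gap to the others, as a share of the whole range in log2(FPKM + 1), was above 0.71. Chance gives about 1 in 20 sets, but the genes were named in part for their spread, so that the share here is not read against it. Ang II-infused WT mouse 1 was the one apart in 7 of them, always above the rest. These were Serpina3n (0.763), Lyz2 (0.789), Col1a1 (0.745), Lgmn (0.758), Hmox1 (0.892), Arg1 (0.895) and Mmp9 (0.902). Ang II-infused WT mouse 4 was apart in 4, low in Aldoa (0.753) and Ucp1 (0.796) and high in C1galt1c1 (0.789) and Cfl2 (0.740). Ang II-infused Plod1-/- mouse 1, a library with Xist RNA, was low in Ctso (0.782) and Cd47 (0.785) and high in mt-Nd1 (0.747). Mouse 2 of that group was high in Cox5b (0.747), at 177 FPKM.

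Under saline the mice apart differed from gene to gene. Saline-infused WT mouse 1 was high in Arc (0.825) and in Dbh (0.878), the latter at 0.417 FPKM, mouse 3 was high in Igkc (0.794) and mouse 4 was at 0 FPKM in Th (0.759). Saline-infused Plod1-/- mouse 3 was high in H2-Aa (0.801) and in Csf3r (0.731), mouse 1 was high in Myl7 (0.770) and mouse 4 was low in Ctso (0.714). Values of Th, Dbh and Csf3r under saline are below 1 FPKM.

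The change in spread under Ang II differed between the genotypes in 4 genes by the test over all 20 mice. As Plod1-/- minus WT on the log2 scale, the differences were 2.33 (SE 0.52) for Prph, 1.93 (SE 0.44) for Gap43, -3.21 (SE 0.71) for Saa3 and -0.83 (SE 0.19) for 1110008P14Rik, each with a limma adjusted p of 0.0373.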

How the results depend on the processing

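The counts of genes called moved with nearly every choice, whereas the median ratios over all genes and the differences in mouse distance kept their direction under every alternative run. In WT mice 3 genes were called. The count was 1 with a pseudocount of 0.1, 23 (21 more and 2 less variable) with a minimum mean of 1 FPKM, 1 with 20 FPKM, 2362 (677 and 1685) with no minimum, 1 (Ucp1, less variable) with 5 FPKM in each group, 7 with quantile normalization and 71 in a fit of all 4 groups. It was 0 with deviations from the median (224 more and 19 less variable at an unadjusted p below 0.05), with squared deviations (341 and 91), without a variance trend (815 and 169) and by exact permutation (854 and 179), against 1355 genes at an unadjusted p below 0.05. In Plod1-/- mice, where 4 genes were called, the count was 1, 9, 0 (516 and 29 unadjusted), 1958, 1 (Gm10800), 8 and 255 under the first 7 of these settings. It was 0 with the group median (231 and 3), squared deviations (521 and 39), no trend (1014 and 66) and exact permutation (1070 and 79), 0 without the 2 libraries that held Xist RNA (762 and 155), and 1434 at an unadjusted p. For the difference between genotypes, with 4 genes called, the count was 0 with a pseudocount of 0.1 (578 and 350 unadjusted), 8 with 5, 69 with a minimum of 1 FPKM, 0 with 20 FPKM (192 and 190), 8802 with no minimum, 0 with 5 FPKM in each group (484 and 291), 2 without mitochondrial genes, 8 without the libraries with Xist RNA, and 941 at an unadjusted p. It was 0 with the group median (120 and 94), squared deviations (385 and 196) and no trend (522 and 303). The causes were not tested.

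Leaving out each mouse in turn gave 1 to 386 genes in WT, 1 to 17 in Plod1-/- mice and 0 to 65 for the difference between genotypes. The median log2 ratio of the SDs ran from 0.0942 (without the farthest mouse, WT mouse 4) to 0.702 in WT and from 0.393 (without Plod1-/- mouse 1) to 0.879 in Plod1-/- mice. It was 0.0556 with no minimum in WT and 0.399 without the libraries with Xist RNA in Plod1-/- mice. The difference in mouse distance ran from 0.0518 to 0.196 in WT, past 0.05 without Ang II-infused mouse 2 (exact permutation p = 0.0238), 3 (p = 0.00794) or 5 (p = 0.0476). It ran from 0.0772 to 0.229 in Plod1-/- mice, not past 0.05 without Ang II-infused mouse 1 (exact permutation p = 0.167) or saline-infused mouse 1, 3, 4 or 5. It was 0.152 with a pseudocount of 0.1 (exact permutation p = 0.0556), 0.133 with 20 FPKM (p = 0.143), 0.130 with 5 FPKM in each group (p = 0.0556) and 0.0615 without the libraries with Xist RNA (p = 0.371).

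Correlations did not show that equal replicate numbers mark pairs, and they cannot show that no pairs exist. Same-numbered mice correlated at -0.114 to 0.266 in WT and -0.201 to 0.470 in Plod1-/- mice, and 1 of 5 and 2 of 5 numbers matched best with themselves. The latter were Plod1-/- numbers 2 (0.470) and 3 (0.442). With the replicate block, 2 genes were called in WT, 4 in Plod1-/- mice and 8 for the difference between genotypes.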

Other observations

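Other gene classes of the wall, described by their median ratio of the SD under Ang II to that under saline, differed in which mouse moved them. Matrix proteases and their inhibitors stood at 2.27 in WT and 2.05 in Plod1-/- mice (12 genes), elastic fibre genes at 1.62 and 1.92 (15 genes), matricellular genes at 1.47 and 1.80 (12 genes) and adventitial fibroblast genes at 1.45 and 1.74 (18 genes). Basement membrane genes stood at 1.41 and 1.81 (13 genes). In WT mice the median turned to 0.90 for elastic fibre genes without mouse 1 and to 0.793 for basement membrane genes without mouse 4, and proteases stood at 1.28 without mouse 1. Genes of heme breakdown and iron handling were at 1.96 and 2.16 (11 genes), cytokines and their receptors at 2.34 and 2.35 (8 genes), interferon-stimulated genes at 2.28 and 2.1 (7 genes) and vasoactive ligands and receptors at 2.32 and 1.96 (11 genes). Interferon-stimulated genes were at 1.44 without WT mouse 1 and at 1.08 without Plod1-/- mouse 3, and vasoactive genes at 1.20 without WT mouse 4. Chemokines were at 1.53 and 1.24 (17 genes), and at 0.693 without WT mouse 1 and 0.895 without Plod1-/- mouse 1. Fatty acid synthesis genes were at 1.58 and 0.878 (16 genes), the former 1.01 without WT mouse 4 and the latter 1.54 without saline-infused mouse 2. Reference genes were at 1.02 and 1.24 (14 genes) and clock genes at 1.02 and 1.41 (10 genes), and leaving out WT mouse 4 took reference genes to 0.785 and leaving out WT mouse 1 took clock genes to 0.704. Leaving out saline-infused Plod1-/- mouse 3 took reference genes to 2.08, and leaving out mouse 4 of that group took clock genes to 2.17. By limma 0 of the 164 genes of these 13 classes were called in either genotype. At an unadjusted p below 0.05, 33 of the 164 were more and 1 less variable in WT mice, and 36 more and 3 less variable in Plod1-/- mice. Over all genes these shares were 16.4% and 2.5% in WT and 19.1% and 0.934% in Plod1-/- mice.

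Lists with fewer than 5 measured genes are given by their median ratios alone. B cell genes (2) were at 1.79 and 0.751, platelet genes (2) at 1.28 and 1.49, mesothelial genes (2) at 2.0 and 1.65, lymphatic genes (2) at 3.01 and 0.942, kidney, liver and pancreas genes (2) at 0.835 and 1.98, the adrenal cortex gene measured (1) at 2.46 and 0.840, and cell cycle genes (4) at 1.55 and 2.60. Without Ang II-infused WT mouse 1 the WT ratios of platelet and lymphatic genes were 0.469 and 1.24, and without mouse 4 that of the adrenal cortex gene was 1.14.

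Further genes below the minimum mean, chosen after their values were seen, were high in some mice of a group. Chga, chromogranin A of secretory granules, was at 0.60, 0.0974, 5.41, 9.56 and 7.44 FPKM in Ang II-infused Plod1-/- mice and Sox10, a transcription factor of Schwann cells, at 0.723, 1.20, 3.43, 6.66 and 3.27. Ckm, creatine kinase of muscle, was at 0.240, 21.1, 11.7, 1.48 and 7.10 in Ang II-infused WT mice, and Nppa, the atrial natriuretic peptide, at 53.5, 0.195, 0.0440, 0.122 and 0.0412 in saline-infused Plod1-/- mice.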
